A study of Mus musculus with 4 samples.

Results

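Haem is built from glycine and succinyl-CoA by a chain of enzymes that starts and ends in the mitochondrion. Of that chain, 8 genes are described here: Alas1 and Alas2, which encode the forms of 5-aminolevulinate synthase that open it, and Alad, Uros, Urod, Cpox, Ppox and Fech, which encode later enzymes. They were taken by name from the mm10 gene table, out of 21887 protein-coding genes. All peaks of the deposited MafG list with a midpoint inside a gene or within 50 kb of it were collected, which gave 51 of 68763 peaks, none shared between the 8 genes. The study mapped tagged MafG on liver chromatin of C57BL6/J mice by chromatin immunoprecipitation with sequencing (ChIP-seq). It holds 2 libraries of livers that overexpressed BLRP-tagged MafG (treatment label Ad BLRP MAFG) and 2 of livers given the tag control (Ad BLRP Control), all precipitated with an Avi-tag antibody. The labels used here give neither age nor sex, and tagged MafG at native levels was not among the samples.

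MafG belongs to the small MAF proteins, which carry a leucine zipper but no domain to activate transcription. It binds DNA in pairs, with partners such as NRF2, which activates, and BACH1, which represses and is released from DNA when it binds haem. In the liver ALAS1 is the rate-limiting enzyme of haem synthesis and serves the cytochromes P450, and its gene is held down by haem. ALAS2 is the form of developing red blood cells, whose gene is driven by GATA1. A peak gives the place of tagged MafG on the chromosome and says nothing of which gene it acts on.

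Each group is represented in the peak list by 1 collection of tags, and the sources do not state whether that is 1 library or both. The normalized tag count is the number of BLRP-MafG tags in a peak, scaled to 10000000 tags. The BLRP-MafG collection held 20406492 tags and the control an implied 1.72e+07. No value per library is given, so no difference could be tested over animals, and the intervals given, exact at 95%, cover the counting of tags only. To be listed, a peak needed 10 times the control and 4 times its surroundings of 10 kb, so that low control counts and high ratios follow in part from that filter.

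Promoter sequences are shown first, each as the 250 bases before a RefSeq start of transcription (GRCm38.p6, the mm10 assembly), read 5′ to 3′ on the strand of the gene. Alas1 and Alas2, whose promoters no listed peak touches, are shown because the genes are compared below, Ppox because it is the only one of the 7 genes with a listed start that has a peak over it, and Pfkfb1 because a peak in the Alas2 window lies there. In Ppox and Pfkfb1 capitals mark the bases under the peak, and in Alas2 they mark a match to AGATAA, the letters of a GATA site, on the opposite strand. The Alas1 stretch, chr9:106247955-106248204 on the minus strand, lies before the upstream one of its listed starts. The Alas2 stretch is chrX:150547167-150547416 on the plus strand. The Ppox stretch is chr1:171281187-171281436 on the minus strand, and the Pfkfb1 stretch chrX:150587993-150588242 on the plus strand.
Alas1: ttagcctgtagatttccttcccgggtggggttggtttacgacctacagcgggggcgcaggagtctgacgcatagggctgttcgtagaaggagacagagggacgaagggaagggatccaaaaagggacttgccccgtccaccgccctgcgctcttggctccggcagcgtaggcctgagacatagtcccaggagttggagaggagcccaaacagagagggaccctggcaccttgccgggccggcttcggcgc
Alas2: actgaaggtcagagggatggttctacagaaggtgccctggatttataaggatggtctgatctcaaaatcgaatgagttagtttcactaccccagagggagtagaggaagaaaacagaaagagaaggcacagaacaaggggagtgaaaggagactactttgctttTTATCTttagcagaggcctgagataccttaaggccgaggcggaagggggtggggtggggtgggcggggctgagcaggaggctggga
Ppox: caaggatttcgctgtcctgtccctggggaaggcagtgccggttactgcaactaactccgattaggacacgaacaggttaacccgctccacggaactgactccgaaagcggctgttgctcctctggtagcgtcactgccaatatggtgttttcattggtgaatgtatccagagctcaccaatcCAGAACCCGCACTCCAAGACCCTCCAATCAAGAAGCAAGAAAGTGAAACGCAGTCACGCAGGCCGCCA
Pfkfb1: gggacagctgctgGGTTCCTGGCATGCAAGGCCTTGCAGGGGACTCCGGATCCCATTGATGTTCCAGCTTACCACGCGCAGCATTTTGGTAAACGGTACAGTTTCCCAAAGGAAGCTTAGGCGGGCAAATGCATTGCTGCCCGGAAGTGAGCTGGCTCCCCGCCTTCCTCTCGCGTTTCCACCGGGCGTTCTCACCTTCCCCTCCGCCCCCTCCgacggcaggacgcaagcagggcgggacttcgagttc

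In the promoters of the 7 genes with a listed start, no match was found to any of the MAF and partner motifs searched on both strands of the 300-base windows, which run from 250 bases before to 50 bases after a start. The motifs were TGCTGA (one arm of the MAF recognition element), TGANTCA (the AP-1 site), TGACNNNGC (the core of the antioxidant response element), the NF-E2 site and the whole MAF recognition element. TGCTGA is part of the last 2, and TGANTCA overlaps it in both. Of 32851 RefSeq promoter windows, TGCTGA was in 19.5%, TGANTCA in 7.81%, TGACNNNGC in 12.4%, the NF-E2 site in 0.423% and the whole element in 0.00609%. A window without a match says only that these letters are not in it. A further search, added after the peaks were seen, used AGATAA and the site of nuclear respiratory factor 1 (NRF1), a palindrome of GC-rich letters. AGATAA is in 11.2% of windows and the NRF1 site in 4.60%. Neither was among the MAF and partner motifs above, and the name NRF1 does not stand here for a partner of MafG. Alas1 had 2 matches to the NRF1 site, their first letters 0 and 29 bases past its upstream start, and Alas2 had none. Counted from the downstream one of the listed Alas1 starts, the same 2 sites lie before it, at -224 and -195. Alas2 had 1 match to AGATAA, 86 bases before its start, and Alas1 had none. Uros had an NRF1 match 47 bases before a start, and Cpox an AGATAA match 4 bases past its start. The G and C share of the 250 bases shown was 62.4% for Alas1 and 51.2% for Alas2.

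Peaks were found at all 8 genes, but their heights differed widely and most of the tall ones lay at a neighbouring gene. All 8 had a peak inside or within 50 kb, a window in which 93.5% of protein-coding genes had one. Within 10 kb 7 of 8 had one, against 74.5% of all genes. Alas2 was the exception. Within 1 kb and inside the gene 6 of 8 had one, against 56.8% and 50.5% of all genes, and Alas2 and Cpox did not. The median normalized tag count was 13.2 (quartiles 7.84 and 22.6) over the 51 peaks, against 12.3 (quartiles 7.84 and 23.5) over all listed peaks. Of the 51, 12 (23.5%) lay above the upper quartile of all listed peaks. The median of the highest peaks of the 8 genes was 55.6 (quartiles 15.1 and 171), against 33.8 (quartiles 16.7 and 69.6) over all protein-coding genes, with genes without a peak at 0. As the genes were chosen with results of these data known, these counts and medians are a description.

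**Figure D1:**
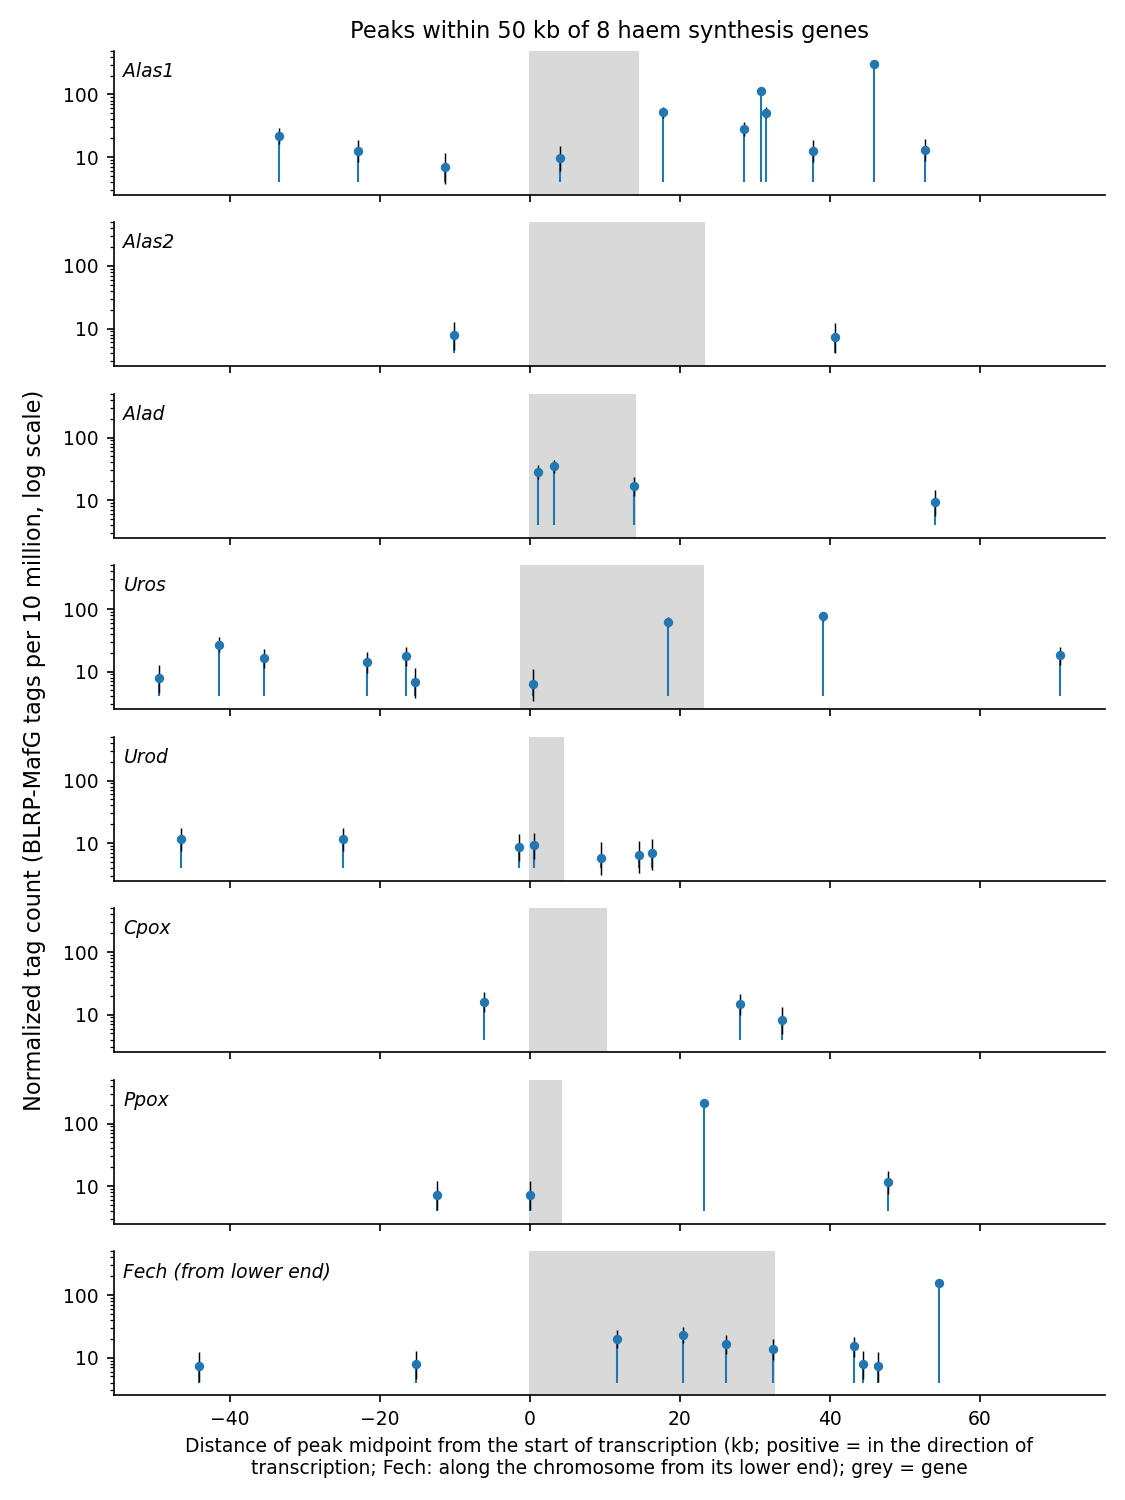
Peaks within 50 kb of the 8 haem synthesis genes, by distance of the peak midpoint from the start of transcription in kb (for Fech, from its lower end along the chromosome). Height is the normalized tag count on a log scale, bars are exact 95% intervals of the tag counting, and grey marks the gene. The tall peaks at Alas1, Ppox and Fech, of 303.8, 210.7 and 157.8, lie outside the genes, and Alas2 has 2 low peaks.

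The order of the genes by their highest peak was Alas1 with 303.8 (280 to 329), Ppox with 210.7 (191 to 232), Fech with 157.8 (141 to 176), Uros with 76.4 (64.9 to 89.4), Alad with 34.8 (27.2 to 43.9), Cpox with 16.2 (11.1 to 22.7), Urod with 11.8 (7.54 to 17.5) and Alas2 with 7.84 (4.48 to 12.7). The intervals of neighbours in this order did not overlap from Alas1 down to Cpox, whereas those of Cpox and Urod overlapped, and so did those of Urod and Alas2. Only for Alad did the highest peak lie inside the gene (1 of 8, against 21.9% of all genes with a peak). By the peaks inside the genes the order was another: Uros had 62.2 (51.9 to 74), Alad 34.8, Fech 23 (16.9 to 30.6), Alas1 9.8 (5.99 to 15.1), Urod 9.31 (5.61 to 14.5) and Ppox 7.35 (4.11 to 12.1). Of the 51 peaks, 12 lay inside 1 of the 8 genes, with normalized tag counts of 6.37 to 62.2, and 39 lay outside, with 5.88 to 303.8. The medians were 16.7 inside and 12.7 outside. For 35 of the 51 another protein-coding gene was nearer. Each window held 2 to 7 other protein-coding genes, wholly or in part. The share over the windows of all genes is not given, so this count is a description.

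**Figure D2:**
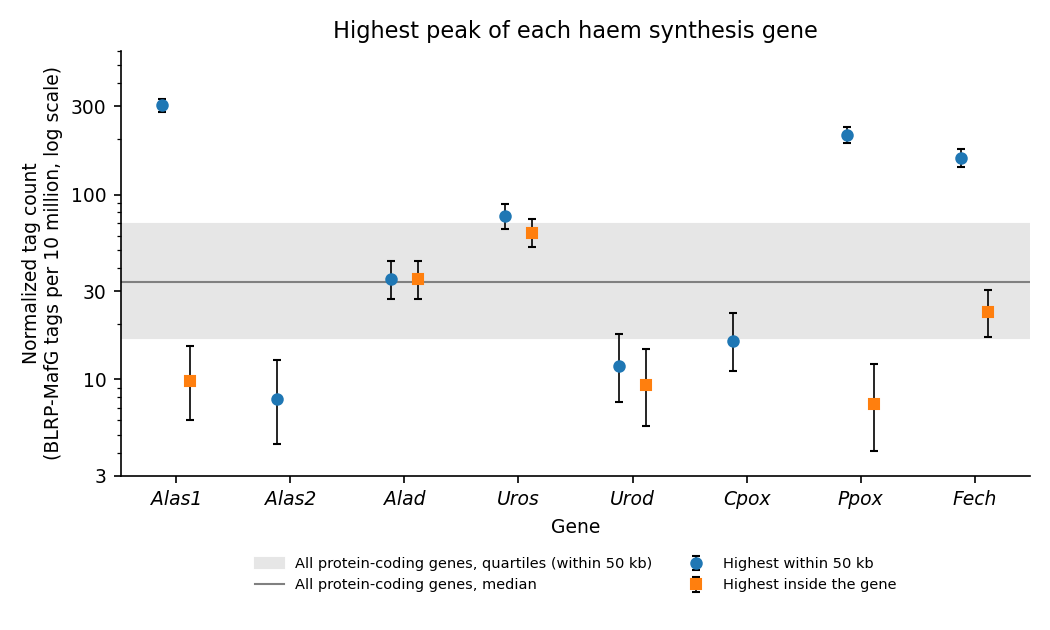
Highest normalized tag count of each haem synthesis gene on a log scale, within 50 kb (circles) and inside the gene (squares), with exact 95% intervals of the tag counting. The line and the band are the median of 33.8 and the quartiles of 16.7 and 69.6 of the highest peak within 50 kb over all protein-coding genes, to be read against the circles only. The circles of 4 genes, Alas1, Ppox, Fech and Uros, stand above the band.

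Alas1, on chromosome 9 at 106233455-106247954, had 11 peaks, and the tall ones formed a row past its 3′ end. Of the 11, 7 lay downstream of the gene, 1 inside and 3 upstream, and the 7 held 91.8% of the BLRP-MafG tags. The tallest, of 303.8 (280 to 329), stood at chr9:106201985-106202185, 31370 bp past the gene and 1023 bp outside Twf2, which encodes the actin-binding protein twinfilin 2. It held 620 BLRP-MafG tags and 1 control tag, a ratio of 523 (93.5 to 20690), and ranked 281 among all listed peaks by normalized tag count. It alone held 48.4% of the tags of the window. In the authors' deposited table its fold over the surrounding 10 kb was 158.

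The next peaks of the row lay between Twf2 and Alas1. A peak of 114.7 (100 to 130) at chr9:106217058-106217258 held 234 BLRP-MafG tags and 8 control tags, a ratio of 24.7 (12.3 to 57.8). It lay 1771 bp from Twf2 and 16297 bp past Alas1. A peak of 51.5 (42.1 to 62.3) lay beside it at chr9:106216333-106216533, 1046 bp from Twf2. The one closest to Alas1 on this side, of 51.9 (42.5 to 62.8) at chr9:106230026-106230226, lay 3329 bp past the end of Alas1 and 3250 bp from Tlr9, which encodes an endosomal DNA sensor. It held 106 BLRP-MafG tags and 0 control tags, a ratio of 29.8 where a floor of 3 stands for the 0 (exact lower limit 23.8). A ratio against the floor cannot be ranked with ratios against counted control tags. The other downstream peaks were of 28.4, 13.2 and 12.7.

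At Alas1 itself the signal was low. The peak nearest to a start lay inside the gene, 3854 bp past the downstream one of its listed starts, at chr9:106243776-106243976. Its normalized tag count was 9.8 (5.99 to 15.1), from 20 BLRP-MafG tags and 0 control tags, a ratio of 5.62 against the floor with an exact lower limit of 4.16. The nearest upstream peak, of 6.86 (3.75 to 11.5), lay 11309 bp before the gene, and those farther upstream, of 12.7 and 22.1, were nearest to or inside Poc1a, a gene of a centriole protein. Alas1 was the nearest gene for 2 of the 11 peaks, those of 9.8 and 6.86.

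Alas2, on chromosome X at 150547417-150570622, had 2 low peaks, none of them inside the gene or within 10 kb. One stood at 7.84 (4.48 to 12.7), 10150 bp before its start at chrX:150537167-150537367, with 16 BLRP-MafG tags and 0 control tags, a ratio of 4.50 against the floor with an exact lower limit of 3.25. The other, of 7.35 (4.11 to 12.1), lay 17484 bp past the gene at chrX:150588006-150588206, with 15 BLRP-MafG tags and 1 control tag, a ratio of 12.7 (1.95 to 533). Both peaks lay inside Apex2, a DNA repair gene that overlaps Alas2 in the gene table. The second peak also lay inside Pfkfb1, a regulator of liver glycolysis, and covered 201 of the 250 Pfkfb1 bases shown above.

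Set side by side, the Alas1 window held far more MafG signal than the Alas2 window. The highest peak of Alas1 had 620 BLRP-MafG tags and that of Alas2 16, a ratio of 38.8 (23.7 to 68.2, exact 95% interval of the tags). Summed over the window and divided by its length, Alas1 had 11.2 unscaled BLRP-MafG tags per kb and Alas2 0.252, a ratio of 44.5 (31.2 to 65.7). Without the highest Alas1 peak the ratio was 22.9 (16 to 34). Most of these tags lay in peaks nearer to other genes. Peaks for which the gene itself was nearest held 34 of the 1281 tags at Alas1 and 0 of 31 at Alas2. Per 100 kb of window there were 9.61 peaks at Alas1 and 1.62 at Alas2. Of the 11 Alas1 peaks, 10 were above the higher Alas2 peak in normalized tag count, and 6 had an interval wholly above its interval. That Alas2 peak, of 7.84, was itself low, so most listed peaks were above it. It ranked 49610 among the 68763 listed peaks, whose lower quartile was also 7.84. Within 10 kb Alas1 had 2 peaks, of 51.9 and 9.8, and Alas2 had 0.

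Chromosome X as a whole carried less signal. Of its protein-coding genes, 79.4% had a peak within 50 kb, against 93.5% of all protein-coding genes, and 48.7% had one within 10 kb, against 74.5%. The median highest peak was 11.8 on X and 35.8 on the autosomes. The summed normalized tag count per kb had a median of 0.140 on X and 0.687 on the autosomes. With 0.123 per kb Alas2 stood at 0.882 times the X median, above 46.1% of X genes. With 5.48 per kb Alas1 stood at 7.98 times the autosomal median, above 99.6% of the genes of chromosome 9. The part of the chromosome in the difference between Alas1 and Alas2 was not tested.

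**Figure D3:**
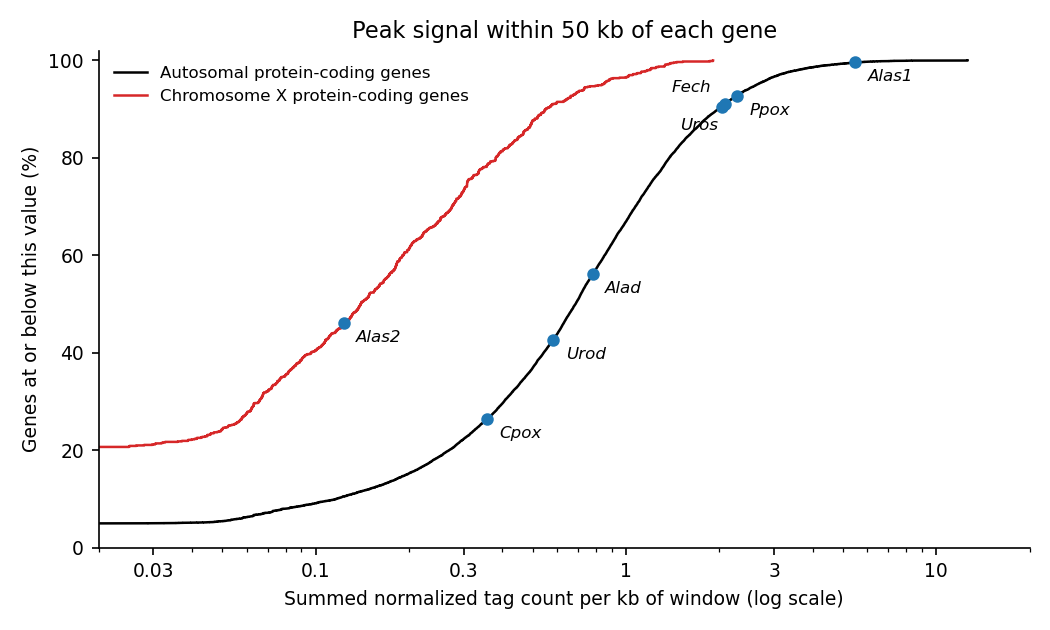
Cumulative share of protein-coding genes by summed normalized tag count per kb of the 50 kb window (log scale), for autosomal genes and genes of chromosome X, with the 8 haem synthesis genes as points. Alas1, at 5.48 per kb, lies near the top of the autosomal curve, while Alas2, at 0.123, lies near the middle of the X curve; genes at 0 are counted in the share and not drawn.

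Alad, the aminolevulinate dehydratase that makes porphobilinogen, was the gene with its signal mostly inside. At chromosome 4:62505984-62520063 it held 3 of its 4 peaks. The highest, of 34.8 (27.2 to 43.9) at chr4:62516758-62516958, lay 3051 bp past a listed start, with 71 BLRP-MafG tags and 5 control tags, a ratio of 12 (4.90 to 38). A peak of 28.4 (21.6 to 36.7) lay 961 bp past that start at chr4:62518848-62519048, with 58 BLRP-MafG tags and 1 control tag, a ratio of 48.9 (8.44 to 1965). Their intervals overlapped. The third, of 16.7 (11.5 to 23.3), lay 147 bp inside the 3′ end, and a peak of 9.31 lay 39994 bp past the gene in Wdr31. The highest peak of Alad was above that of 50.7% of all protein-coding genes.

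Uros, the uroporphyrinogen III synthase that closes the porphyrin ring, lies at chromosome 7:133686142-133710467 and had 10 peaks. The highest, of 76.4 (64.9 to 89.4) at chr7:133670042-133670242, lay 16000 bp past the gene inside Edrf1, a gene named for erythroid differentiation, with 156 BLRP-MafG tags and 4 control tags, a ratio of 32.9 (12.6 to 122). The next, of 62.2 (51.9 to 74) at chr7:133690719-133690919, lay inside Uros near its 3′ end and was the highest of the 12 peaks inside a haem synthesis gene. It held 127 BLRP-MafG tags and 10 control tags, and its ratio of 10.7 (5.64 to 22.9) was close to the limit of the list. The third, of 27 (20.3 to 35.1) at chr7:133750691-133750891, lay 40324 bp upstream of the gene. A peak of 6.37 (3.39 to 10.9), with 13 BLRP-MafG tags and 1 control tag, lay 434 bp past the upstream one of its listed starts at chr7:133708761-133708961. In the gene table Bccip, at 133709333-133721145, overlaps this end of Uros. The other 6 peaks had 6.86 to 18.1, and the 6 upstream of the gene all lay inside Dhx32, a helicase-like gene.

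Urod, the uroporphyrinogen decarboxylase, had 7 peaks, all low. They ran from 5.88 to 11.8 around the gene at chromosome 4:116989965-116994436. The highest 2 both had 11.8 (7.54 to 17.5). They lay 46485 bp upstream inside Eif2b3, a translation initiation gene, with 24 BLRP-MafG tags and 0 control tags, and 24918 bp upstream, 45 bp outside the same gene, with 24 BLRP-MafG tags and 2 control tags. The one inside Urod, of 9.31 (5.61 to 14.5) at chr4:116993705-116993905, lay 608 bp past the start, with 19 BLRP-MafG tags and 0 control tags, a ratio of 5.34 against the floor and an exact lower limit of 3.94. A peak of 8.82 (5.23 to 13.9) lay 1411 bp before the start, inside the neighbouring gene Hectd3. The intervals of all these peaks overlapped.

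Cpox, the coproporphyrinogen oxidase, at chromosome 16:58670208-58680391, had 3 peaks and none inside. The highest, of 16.2 (11.1 to 22.7) at chr16:58663954-58664154, lay 6154 bp before its start, with 33 BLRP-MafG tags and 0 control tags, a ratio of 9.28 against the floor and an exact lower limit of 7.13. Cpox was the nearest gene for it and for a peak of 14.7 (9.92 to 21) 17806 bp past the gene. The last, of 8.33, lay 23510 bp past it.

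Ppox, the protoporphyrinogen oxidase, at chromosome 1:171276991-171281193, combined a low peak at its start with a tall one at some distance. The peak at the start, chr1:171281054-171281254, had its midpoint 32 bp past the start and a normalized tag count of 7.35 (4.11 to 12.1), from 15 BLRP-MafG tags and 0 control tags. Its ratio was 4.22 against the floor, with an exact lower limit of 3.03. It covered the last 68 bases of the Ppox stretch shown above. In the gene table the deubiquitinase gene Usp21 lies 756 bp from this end of Ppox. The tall peak, of 210.7 (191 to 232) at chr1:171257860-171258060, lay 19031 bp past the gene inside Adamts4, a gene of a matrix protease. It held 430 BLRP-MafG tags and 10 control tags, a ratio of 36.3 (19.5 to 76.2), and 88.8% of the tags of the Ppox window. The window also holds 7 other protein-coding genes, wholly or in part. The remaining peaks were of 11.8, inside Fcer1g, and 7.35, inside Ufc1.

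Fech, the ferrochelatase that puts iron into protoporphyrin, lies at chromosome 18:64456542-64489098. It held 4 of its 10 peaks inside, more than any other of the 8 genes. It is also the longest of them, with 32557 bp, while Alad held 3 of its 4 peaks in 14080 bp. The peaks inside Fech had 13.7, 16.7, 20.1 and 23 and lay 97, 6417, 11696 and 12112 bp from the nearer gene end in the same order. The highest of them, of 23 (16.9 to 30.6), held 47 BLRP-MafG tags and 1 control tag, a ratio of 39.6 (6.78 to 1599). The intervals of the 4 overlapped. The tallest of the window, of 157.8 (141 to 176) at chr18:64511083-64511283, lay 22085 bp outside Fech inside Nars, an asparaginyl-tRNA synthetase gene. It held 322 BLRP-MafG tags and 1 control tag, a ratio of 272 (48.4 to 10761). The other 5 had 7.35 to 15.2.

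At the starts of transcription the peaks were well below the tallest of each window, except at Alad and Urod. Of the 7 genes with a listed start, 4 (Alad, Uros, Urod and Ppox) had a peak midpoint within 1 kb of one, against 21.7% of protein-coding genes with a listed start. Their normalized tag counts were 28.4, 6.37, 9.31 and 7.35. For Alas1, Cpox and Alas2 the nearest peak lay 3854, 6154 and 10150 bp from a start. At Alas1, Ppox, Fech and Uros the peak with the most BLRP-MafG tags lay 16000 bp or more outside the gene. The same held for Urod, whose highest 2 peaks, of 24 tags each, lay 24918 and 46485 bp outside it.

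The control held few tags at these peaks. It had 0 tags in 20 of the 51 peaks (39.2%, against 44.4% of all listed peaks), 1 in 20 and 2 or more in 11. The exact lower limit of the ratio to control was above 10 in 8 peaks. The share over all listed peaks is not given, so this count is a description. The limit follows the height of a peak: with 0 control tags it was 9.87 at 45 BLRP-MafG tags and 12.8 at 58. Of the 8 peaks, 5 lay at Alas1 (303.8, 114.7, 51.9, 51.5 and 28.4), and 1 each at Ppox (210.7), Fech (157.8) and Uros (76.4), all of them outside the genes. For the other 43, including every peak inside a haem synthesis gene, the lower limit was 10 or below.

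**Figure D4:**
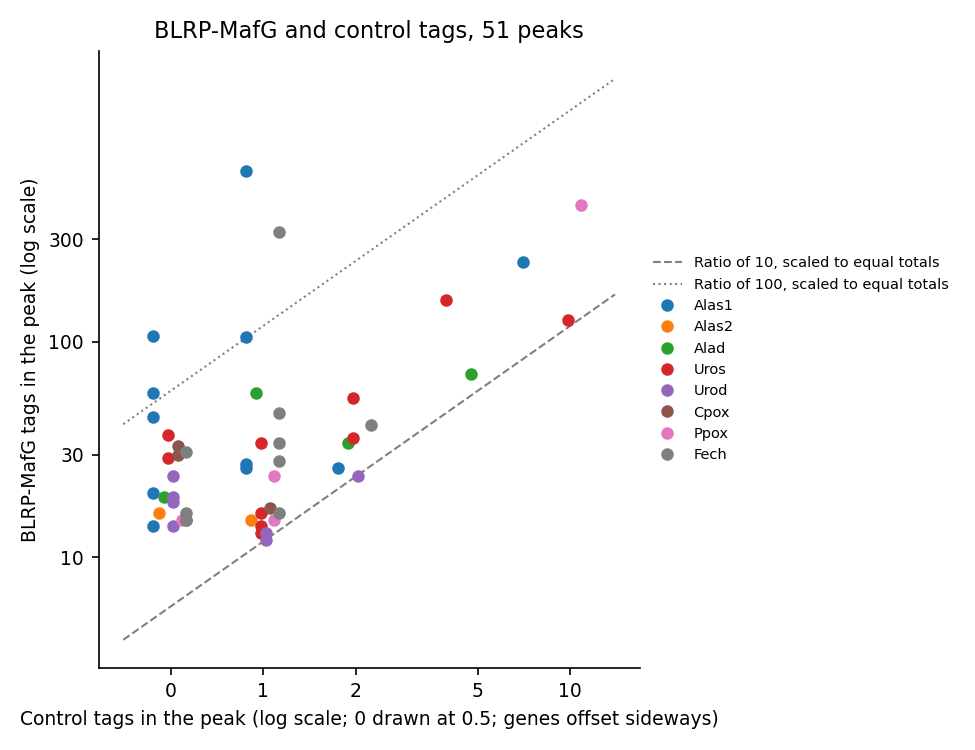
BLRP-MafG tags against control tags in the 51 peaks, both on log scales, with 0 control tags drawn at 0.5 and the genes set slightly apart sideways. The lines mark ratios of 10 and 100 after scaling to equal totals; the Alas1 peak with 620 tags and the Fech peak with 322 had 1 control tag each.

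Other genes of the haem pathway spanned highest peaks of 5.39 to 316.1, against 7.84 to 303.8 for the synthesis genes. All 20 genes of the wider list, which covers mitochondrial carriers and iron-sulphur supply, haem transporters, the makers of haem a and c, and haem breakdown, had a peak within 50 kb, as did 93.5% of all protein-coding genes. Within 10 kb 17 of the 20 had one, against 74.5% of all genes. The median of their highest peaks was 77.9, against 55.6 for the 8 synthesis genes and 33.8 for all protein-coding genes. The 5 highest were at Hmox1, the inducible haem oxygenase gene, with 316.1 (292 to 341), at the haem transporter gene Slc48a1 with 280.8 (258 to 305), at the haem exporter gene Flvcr1 with 243.1 (222 to 265), and at Cox15 and Cox10, which convert haem to haem a, with 192.6 (174 to 213) and 142.1 (126 to 159). Only at Slc48a1 and Cox10 did these lie inside the gene. By signal per length Alas1, with 5.48 normalized tags per kb of window, was second among the 28 genes to Hmox1, with 7.10. The 2 genes on chromosome X had the lowest highest peaks of the 28, with 7.84 at Alas2 and 5.39 (2.69 to 9.64) at Hccs, the holocytochrome c synthase gene.

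**Figure D5:**
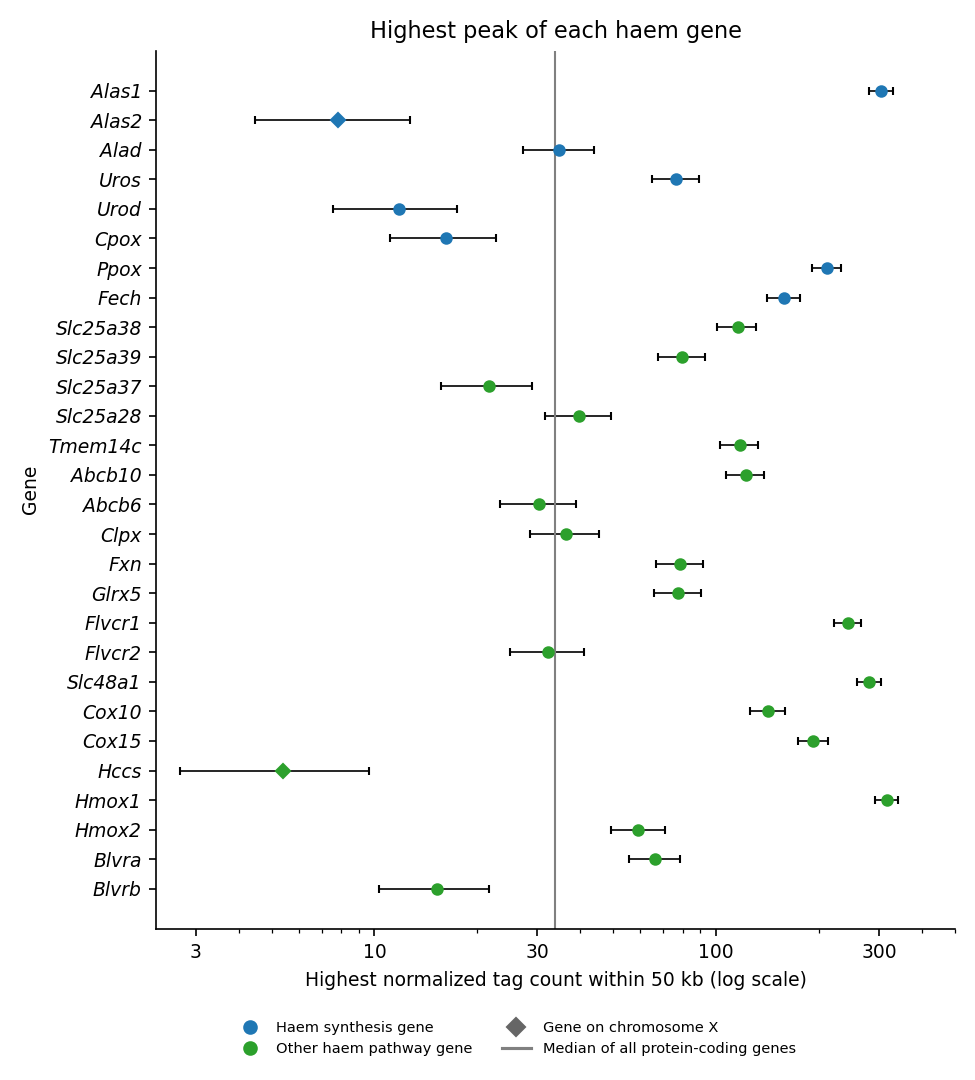
Highest normalized tag count within 50 kb (log scale) of the 8 haem synthesis genes and 20 other haem pathway genes, with exact 95% intervals of the tag counting. The vertical line is the median of 33.8 over all protein-coding genes; diamonds are the 2 genes on chromosome X, at 5.39 and 7.84.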

How the data were processed

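ChIP-seq of BLRP-MafG and BLRP control livers (2 libraries each) was analysed from 1 deposited list of peaks. Build mm10, Bowtie2 and HOMER are named, without versions, per the submitters' processing notes. HOMER findPeaks called, per the file headers, peaks of 200 bp on 1 BLRP-MafG tag collection over 1 control collection, at 10 times the control with a Poisson p of 1e-06 and at 4 times the 10 kb around them. The deposited signal values used were the BLRP-MafG tag count scaled by the authors to 10000000 tags and the unscaled control tags, in which 0.5 stands for 0. The deposited fold values are linear ratios by the authors.

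The total of control tags was implied by the deposited folds. Normalized counts multiplied back came within 0.10 of whole tags, which gave exact 95% Poisson intervals and exact conditional binomial intervals of ratios (scipy 1.17.1, Python 3.11.15). Ratios against 0 control tags used a floor of 3. They are therefore low and cannot be ranked with ratios against counted control tags. Intervals and floors cover counting error only.

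A peak belonged to a gene when its midpoint lay inside it or within 50 kb, by the RefSeq gene table of GRCm38.p6, the mm10 assembly. Distances outside genes run to the gene table's boundaries, and those to starts use the RefSeq promoter table. The 8 genes and the wider list were chosen with earlier results of these data known. All 8 genes are named, with every peak, or for genes with over 6 the 3 highest, the one nearest a start and the range of the rest; of the wider list the 5 highest are named, and Hccs was added after its values were seen. Some genes of the planned wider list are not reported here. The list was not tested, as it holds no value per library. The assignment of peaks and the intervals were tested on simulated data.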

Additional observations from a re-analysis of the deposited data

How the results depend on the processing

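With 8 of 8 genes at 50 kb, the count of genes with a peak was 6 to 8 in every alternative. The count of peaks, 51, was 35 at a fold over control of at least 20, 31 at a normalized tag count of at least 10, 16 within 10 kb, 12 within 1 kb, 12 inside the genes, and 16 with each peak given to the nearest gene only. The highest Alas1 peak, 303.8, was 51.9 within 10 kb and 9.8 within 1 kb, inside the gene or by the nearest gene. Alas2 had no peak in these 4 settings or at a normalized tag count of at least 10, so its ratio to Alas1 has no value there; at a fold of at least 20 the Alas1 to Alas2 ratio per kb was 84.4, against 44.5. The highest Ppox, Fech and Uros peaks were 7.35, 23 and 62.2 within 10 kb, within 1 kb, inside the gene and by the nearest gene. Counting any base of a peak, or the whole peak, changed none of these values. The 50 kb limit also decides what is seen: a peak of 84.3 lay 55096 bp from Alad, just outside it, while the nearest inside, of 9.31, lay at 39994 bp. The planned leaving out of single replicates was not run. No paired analysis was possible because the list holds no value per library. Signal too weak for the peak caller is not seen in such a list.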
